A study of Mus musculus with 3 samples.

Results

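Late proximal tubule cells were studied here as 476 of the 8742 barcodes in 2 single-cell open chromatin libraries of the mouse kidney, or of 14398 barcodes in the 3 libraries of the series. They were selected on their own counts: a barcode needed at least 3000 counts, a summed count of at least 8 over Slc34a1, Lrp2, Slc27a2, Slc22a6, Slc22a8 and Miox that was at least 2 times that over the loop and collecting duct genes Slc12a1, Umod, Kcnj1 and Aqp2, and a summed count over the late genes Slc7a13, Cyp7b1, Slc22a7, Acnat2 and Nat8 of at least 4 and above that over the early genes Slc5a2, Slc5a12 and Slc6a19. A gene's count was taken from peaks overlapping its body or the 2 kb on either side. Of the members, 283 came from old replicate 2 and 193 from the young library. Cells with the late and early sets exchanged in the same rule, 3617 barcodes called early below, served as the comparison.

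The study measured accessible nuclear DNA with mtscATAC-seq, in which fixed, permeabilised cells keep their mitochondria while a transposase cuts open chromatin. All kidneys carried the trnE mutation, in the mitochondrial gene for a transfer RNA, and no library without it was analysed here. The old libraries came from an age of 75 weeks, with a mutation load of 75% in replicate 1 and 80% in replicate 2. The young library came from an age of 3 weeks, with a load of 80%. Neither sex nor strain is stated in the sources, nor whether the old libraries come from different animals or how many animals a library holds. Except where old replicate 1 was added, the tests below used old replicate 2 and the young library, which differ in age. For genes, the p-values rest on how far the late against early difference varied between these libraries, with spread borrowed across genes. For single regions and gene starts the spread was borrowed in full. The variation of 1 region or start between the libraries therefore did not enter its p-value. Variation between the libraries may hold age, animal and technical differences, which these data cannot separate.

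The proximal tubule reclaims most of the filtered glucose, amino acids, phosphate and bicarbonate. Its convoluted part (segments S1 and S2) carries low-affinity, high-capacity carriers such as the glucose transporter encoded by Slc5a2, while the straight late part (S3) carries high-affinity carriers such as Slc5a1, takes up organic anions, is rich in peroxisomes and joins the thin limb of the loop of Henle. Among the late genes, Slc7a13 encodes the aspartate and glutamate carrier of S3, Slc22a7 an organic anion transporter, Nat8 an N-acetyltransferase that forms mercapturic acids, Acnat2 a member of the acyl-CoA amino acid acyltransferase family and Cyp7b1 an oxysterol hydroxylase. Chromatin at a gene can be open without the gene being transcribed, and RNA was not measured in these libraries.

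The libraries held 5656, 4302 and 4440 barcodes (old replicate 1, old replicate 2, young), with medians of 16288.5, 13338.5 and 23319.5 counts per barcode. Old replicate 1 stood apart: 189 of its barcodes passed the proximal gate, whereas 2073 did in old replicate 2 and 2897 did in the young one, and it had no peak at Slc5a2. Its 32 barcodes that met the late rule were not members and are given only beside the members' values. Old replicate 2 and the young library shared 32 barcode sequences, none of them among the late members.

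The values that chose the members are given as a description. The median count over the 5 late genes was 6 for old replicate 2 and 7 for the young one, against 2 and 2 in early barcodes. Nat8 had a count in 67.8% of late and 33.1% of early barcodes of old replicate 2, and in 64.2% and 34.2% in the young library. Acnat2 had a count in 67.8% and 30.5% in old replicate 2, and in 50.8% and 29.6% in the young library. Slc7a13 and Slc22a7 were counted in 29.0% and 34.6% of late barcodes in old replicate 2 and in 52.8% and 61.1% in the young library, and Cyp7b1, the least often open of the set, in 19.4% and 19.2%. Barcodes outside the proximal gate had a count at these genes in 5.71% to 15.6% of cases in old replicate 2 and in 5.46% to 7.35% in the young library, at median counts of 9641.5 and 8896 against 21829 and 31362 in late barcodes.

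**Figure D1:**
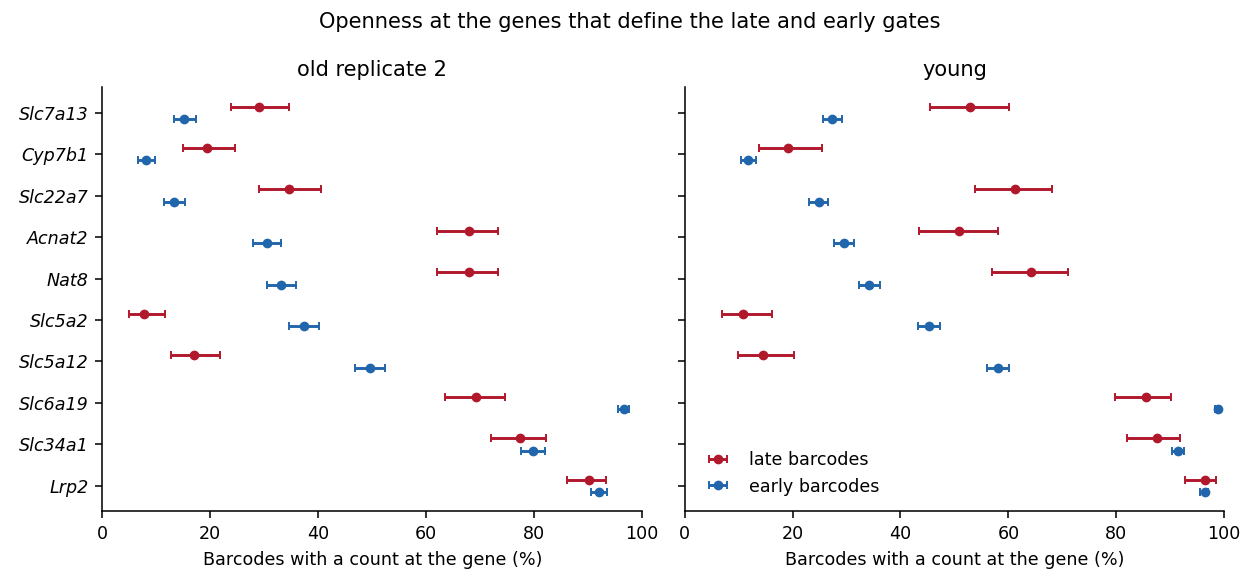
Share of late (red) and early (blue) barcodes with at least 1 count at genes of the rule, in percent, with exact 95% binomial intervals that cover counting error only; the 2 panels are the libraries. The late genes were counted in 19.2% to 67.8% of late barcodes, Slc6a19 in 69.3% and 85.5% of them, and Lrp2 in 90.1% to 96.4% of both classes; the rule set these differences.

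Late barcodes kept counts at early genes. Slc6a19, the neutral amino acid transporter of the early segments, had a count in 69.3% of late barcodes in old replicate 2 and in 85.5% in the young library. Slc5a12 had one in 17.0% and 14.5%, and Slc5a2 in 7.77% and 10.9%. The summed early count was 0 in 65 of the 283 late barcodes of old replicate 2 and in 17 of the 193 of the young library. Most often 2 of the 5 late genes were open together (156 barcodes, 55.1%, and 82 barcodes, 42.5%), and all 5 were open in 0 and 3 barcodes. The limit was densely filled on both sides: 120 and 53 members had a late count of 4 or 5, 99 and 32 proximal barcodes with a late count of 1 to 3 above the early count lay just outside, and 110 and 93 with a late count of at least 4 were left out for a tie with the early count. A further 368 and 990 had a late count of at least 4 that was below the early count.

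Regions outside the rule placed members together only in part. When the proximal gate barcodes of each library were compared on regions not belonging to the rule's genes, 17.6% of the 20 nearest neighbours of a late barcode in old replicate 2 were late, against 13.7% of all proximal barcodes, and 11.3% against 6.66% in the young library. No cluster built on these regions was made up mainly of late barcodes. Their share ran from 7.52% to 23.0% over the clusters of old replicate 2 and from 1.61% to 28.1% in the young library, and the young cluster with 28.1% held 18 late and 42 early barcodes of 64. Late cells here are thus proximal tubule barcodes with late genes open, and these data did not set them apart as a cluster.

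Late barcodes made up 13.7% of the proximal gate in old replicate 2 (283 of 2073, exact 95% interval 12.2% to 15.2%) and 6.66% in the young library (193 of 2897, 5.78% to 7.63%). The thresholds count raw events and young proximal barcodes were deeper, so each barcode was also thinned to 5000 fragments, which left 992 and 1505 proximal barcodes. The shares were then 9.58% (95 barcodes, 7.82% to 11.6%) and 5.91% (89 barcodes, 4.78% to 7.23%). With a late count of at least 8 and at least 2 times the early count, 47 and 37 barcodes remained, 2.27% and 1.28% of the gate. Old replicate 2 was above the young library at each of these settings. However, the counts behind the rule came from each library's own peaks, and thinning leaves these unchanged. For old replicate 2 against young, peak numbers were 7 against 3 at Acnat2, 5 against 4 at Nat8 and 5 against 4 at Cyp7b1. Slc7a13 and Slc22a7 had equal numbers. Among early genes they were 5 against 4 at Slc5a12, 7 against 8 at Slc6a19 and equal at Slc5a2. How far peak numbers shaped the shares was not tested. Old replicate 1, outside the rule, had 16.9% (32 of 189), but 5.36% after thinning (3 of 56, 1.12% to 14.9%), below the young value, which lies inside that interval. No test was possible.

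The first comparison asked what else was open in late cells. Counts were summed per library and class and compared over the 2 libraries with edgeR's quasi-likelihood test, the library being a block. Genes that share a region with a gene of the rule were not tested. The late sums held 6258376 and 6300217 counts and the early sums 28387659 and 82917676 counts in regions with a peak in both libraries. At a Benjamini-Hochberg adjusted p under 0.05, 69 of 28715 genes were higher in late cells (0.24%) and 59 lower (0.205%), 2683 reaching an unadjusted p under 0.05. The differences were small: the median size was 0.51 on the log2 scale and 11 genes passed a 2-fold difference. The stricter gate, applied to both classes, left 47 and 37 late and 565 and 1618 early barcodes in old replicate 2 and the young library. There the 128 kept their sign and 110 had a larger difference, with a median size of 0.74. These barcodes are subsets of the late and early ones and no separate evidence.

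The size of the call list is fragile. The 4 sums leave 1 residual degree of freedom, so the spread was borrowed across genes. DESeq2 with the same block called 8 genes higher and 7 lower, all of them among the 128, namely Slc5a8, Irx3, Irx3os, Pantr1, Fto, Ror2, Slco3a1 and Gm46091 above and Tbx2, Acss1, Myrf, Slc7a7, Shroom3, Maml3 and 2610027K06Rik below. Old replicate 1 did not repeat the pattern. Of the 115 called genes with at least 10 counts in its late and early barcodes, 47 went the same way there (25 of 62 higher and 22 of 53 lower), at a median of 40 late counts per gene. Genes of old replicate 1 were summed over 82744 regions with a peak there and in the young library. The calls used the 118097 regions described below, so the same gene can cover different DNA. With old replicate 1 added as another pair on its own regions, only Slc5a8, Tbx2 and 2610027K06Rik passed the adjusted threshold.

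Slc5a8 had the largest increase among the genes named here. This sodium-coupled carrier of lactate and other monocarboxylates was at 32.1 CPM in late and 18.6 in early cells of old replicate 2, and at 58.6 and 27.7 in the young library, where CPM are counts scaled to the same total in every sum. Late exceeded early in both libraries, by 1.94-fold (log2 0.96 ± 0.12 SE, adjusted p = 1.12e-05, edgeR). It was the one gene to rise under DESeq2 and with old replicate 1 added, where it stood at 27.8 and 19 CPM.

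Some other transporters rose by less. Slc5a1, the high-affinity glucose carrier, was at 60.4 CPM in late against 43.2 in early cells of old replicate 2 and at 86.2 against 59.7 in the young library (log2 0.51 ± 0.08 SE, adjusted p = 0.000747, edgeR). The 2 libraries gave nearly the same difference, 0.49 and 0.53. Slco3a1, an organic anion transporting polypeptide, rose from 108 to 135 CPM and from 64.7 to 106 CPM (log2 0.51, adjusted p = 0.000149, edgeR), and Slc22a13, a urate and nicotinate exchanger, from 84.0 to 95.6 and from 113 to 149 (log2 0.31, adjusted p = 0.0181, edgeR). Slc22a22, another organic anion transporter, was also higher (log2 0.47).

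Irx3 and Pou3f3 rose, while none of the 33 tested members of the list of tubule transcription factors, which holds neither, was called. Irx3, an Iroquois factor that patterns the middle nephron, was at 60.6 CPM in late and 37.8 in early cells of old replicate 2 and at 71.3 and 46.7 in the young library (log2 0.64 ± 0.09 SE, adjusted p = 0.000102, edgeR). Its neighbour Fto rose too (log2 0.35), as did Irx3os, transcribed beside Irx3 and sharing regions with it, so that the genes cannot be told apart in these counts. Pou3f3, a factor needed for the loop of Henle, was at 30.4 and 19.9 CPM in old replicate 2 and at 50.3 and 28.6 in the young library (log2 0.73, adjusted p = 0.000747, edgeR), and Pantr1, the adjacent long noncoding RNA gene, was called as well (log2 0.67), but its count includes the region of Pou3f3, so they are in part one measurement. Sim1 (log2 0.48) and Ror2 (log2 0.49), a Wnt5a receptor, were also called. Agt, which encodes angiotensinogen, stood at 60.4 against 44.7 CPM and at 59.8 against 37.1 CPM, Prlr, the prolactin receptor, rose by log2 0.32 and Esr1, the oestrogen receptor, by 0.43.

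The remaining named genes that rose are mostly enzymes. Bhmt2, a homocysteine methyltransferase, and Dmgdh, the dimethylglycine dehydrogenase of the same choline and methyl-group pathway, differed by log2 0.66 and 0.39. Napsa, an aspartic protease, differed by 0.65, Aspg, an asparaginase, by 0.58, and Kcnk1, a two-pore potassium channel, by 0.76. At the gene start alone Kcnk1 differed by 0.17 (adjusted p = 0.97, edgeR). Ccdc170, Stk32a and Apbb1ip completed the list, at log2 0.65, 0.60 and 0.52. Napsa and Stk32a were uneven between the libraries: Napsa was at 36.6 and 28.0 CPM in late and early cells of old replicate 2 and at 47.3 and 25.6 in those of the young mouse library (log2 0.39 and 0.89), and Stk32a at 28.6 and 24.6 and at 42.4 and 22.5 (0.23 and 0.92). In old replicate 1, Kcnk1, Bhmt2 and Agt were lower in late than in early cells (18.9 and 27.7, 17.7 and 34.2, and 51.7 and 75.7 CPM).

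Tbx2, a T-box repressor of transcription, had the largest decrease among the named genes. It was at 34.5 CPM in late and 64.4 in early cells of old replicate 2 and at 29.0 and 51.8 in the young library (log2 -0.87 ± 0.10 SE, adjusted p = 5.87e-06, edgeR). In old replicate 1 it was at 53 and 74.4 CPM, the same direction. Acss1, the mitochondrial acetyl-CoA synthetase, fell from 107 to 71.6 CPM and from 92.1 to 55.6 CPM (log2 -0.65, adjusted p = 5.59e-06, edgeR), but was at 84.5 in late and 56.2 in early cells of old replicate 1. Myrf, a membrane-bound transcription factor, was at 31.6 and 46.9 CPM in old replicate 2 and at 17.9 and 41.0 in the young library (log2 -0.56 and -1.18).

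Amino acid genes were among those that fell. Slc7a7, the basolateral cationic amino acid exchanger, was at 216 CPM in late and 262 in early cells of old replicate 2 and at 167 and 223 in the young library (log2 -0.35 ± 0.05 SE, adjusted p = 0.00015, edgeR). Slc43a2, a carrier of large neutral amino acids, was at 114 and 150 CPM and at 103 and 128 CPM (log2 -0.35, adjusted p = 0.00166, edgeR), but its gene start alone differed by -0.15 (adjusted p = 0.78). Phgdh, the first enzyme of serine synthesis, was at 28.9 and 41.3 CPM and at 34.3 and 46.8 CPM (log2 -0.48). Chrna4, Lbh, Bhlhe41, Gpat3, Ampd3 and Ppp2r2b also fell, by log2 differences between -0.47 and -0.39. Lbh was uneven, with log2 -0.27 within old replicate 2 and -0.66 within the young library. Chrna4 encodes a subunit of a nicotinic acetylcholine receptor, Gpat3 an acyltransferase of triglyceride synthesis and Ampd3 an AMP deaminase.

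**Figure D2:**
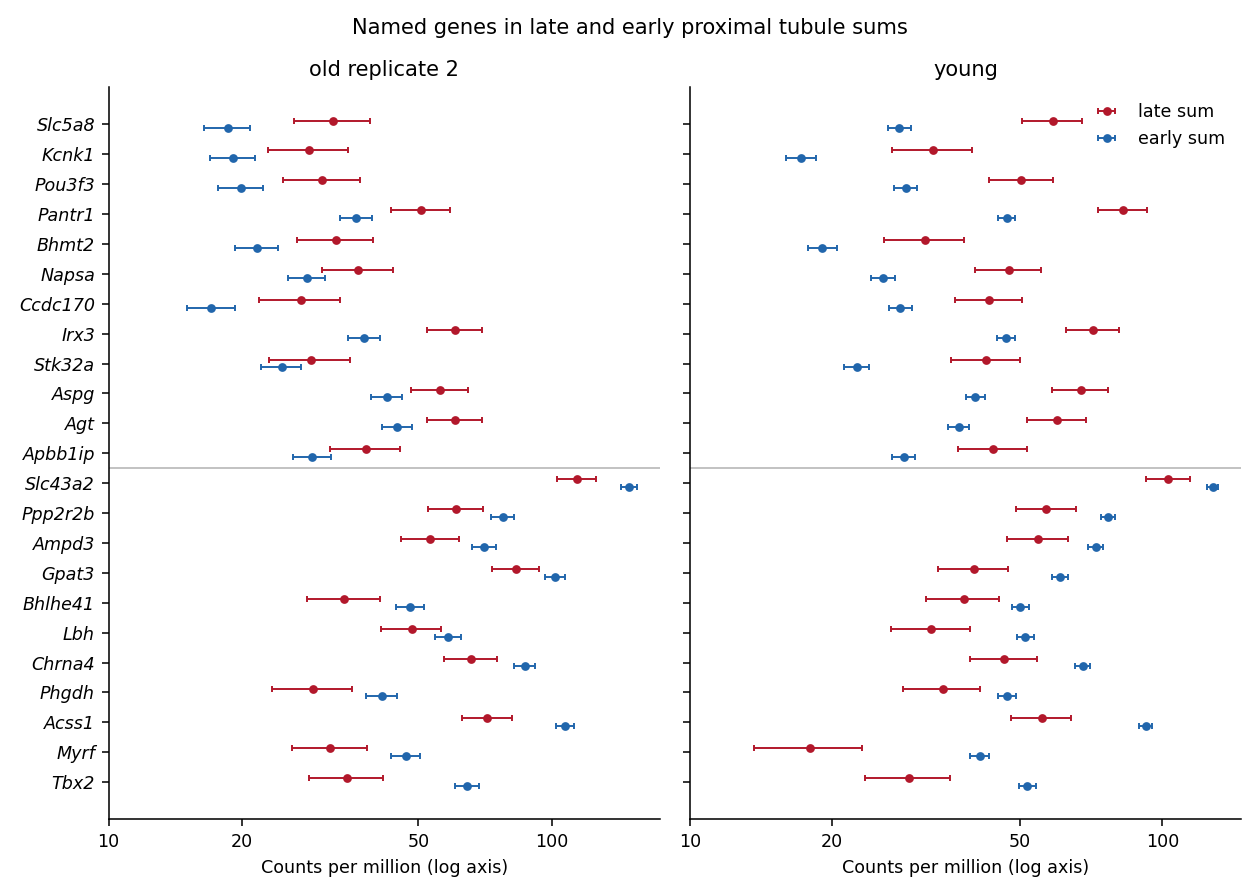
CPM (log axis) of 23 named genes in late (red) and early (blue) sums of each library, with exact 95% Poisson intervals on fragments that cover counting error only. Genes above the line were called higher in late cells and those below it lower; Slc5a8 in the young library (58.6 against 27.7) and Tbx2 in old replicate 2 (34.5 against 64.4) show wide gaps beside small ones such as Slc43a2 (103 against 128 in the young library).

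**Figure D3:**
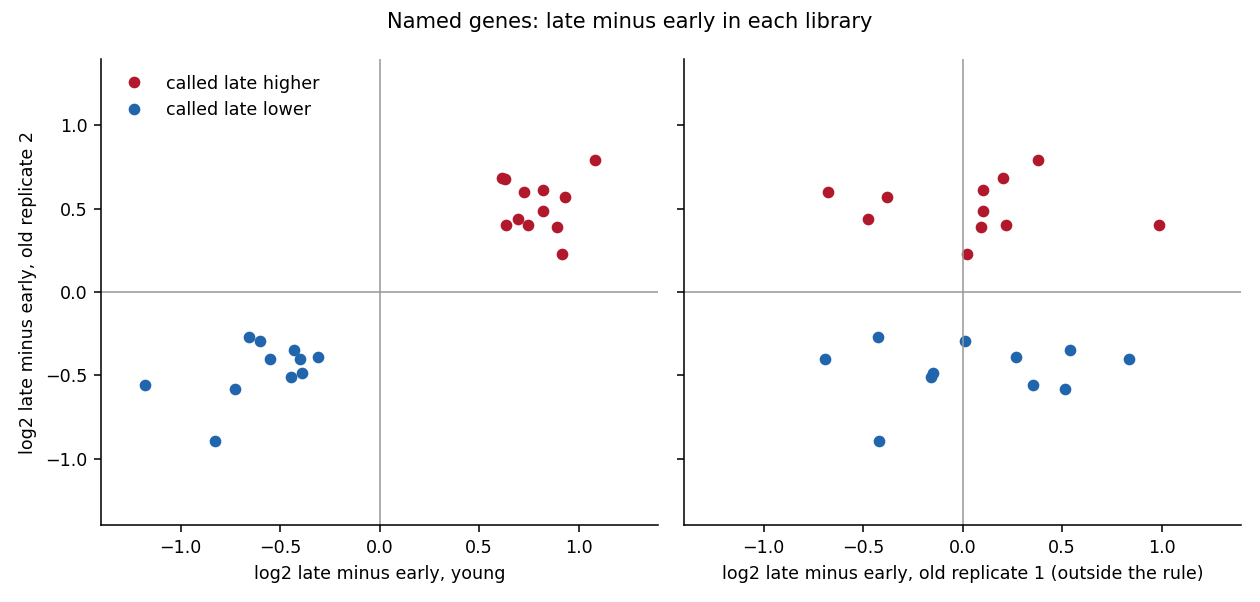
Late minus early difference (log2) of the named genes in old replicate 2 (vertical) against the young library (left) and old replicate 1 (right). The 23 genes were named for the same direction in the first 2 libraries. Old replicate 1 has 32 late barcodes and no value for Ccdc170, and was counted over the regions it shares with the young library. There the genes lie on both sides of 0.

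Promoter sequences are shown for genes whose region at the gene start passed the same test on its own, since there the difference can be tied to a stretch of DNA. Only starts in RefSeq's promoter table, which lacks some genes such as Tbx2, could be tested. Within 1 kb of a start, 15356 genes were tested, 23 were higher and 22 lower in late cells. The 250 bases before the start are printed 5′ to 3′ from RefSeq's promoter table of build GRCm38.p6 (the assembly named mm10 in the files), with any match to 1 of 7 motifs in capitals. Those of the higher genes are Slc5a8 (chr10:88885742-88885991, plus strand), Irx3 (chr8:91801655-91801904, minus strand), Pou3f3 (chr1:42695518-42695767, plus strand) and Slc5a1 (chr5:33103969-33104218, plus strand).
Slc5a8: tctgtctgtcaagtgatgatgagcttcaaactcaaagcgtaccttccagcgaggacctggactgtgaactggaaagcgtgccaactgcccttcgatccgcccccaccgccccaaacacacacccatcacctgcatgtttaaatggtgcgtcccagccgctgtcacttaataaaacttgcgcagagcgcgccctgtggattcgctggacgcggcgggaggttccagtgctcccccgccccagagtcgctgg
Irx3: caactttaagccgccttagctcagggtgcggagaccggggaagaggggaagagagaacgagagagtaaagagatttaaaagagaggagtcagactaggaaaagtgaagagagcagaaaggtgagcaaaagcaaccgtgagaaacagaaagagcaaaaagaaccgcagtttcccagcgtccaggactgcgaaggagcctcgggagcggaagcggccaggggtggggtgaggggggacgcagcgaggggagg
Pou3f3: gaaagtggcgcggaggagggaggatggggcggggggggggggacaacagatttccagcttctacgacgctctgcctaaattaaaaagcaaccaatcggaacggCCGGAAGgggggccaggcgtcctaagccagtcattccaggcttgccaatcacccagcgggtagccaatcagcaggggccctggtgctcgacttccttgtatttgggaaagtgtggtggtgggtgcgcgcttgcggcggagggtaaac
Slc5a1: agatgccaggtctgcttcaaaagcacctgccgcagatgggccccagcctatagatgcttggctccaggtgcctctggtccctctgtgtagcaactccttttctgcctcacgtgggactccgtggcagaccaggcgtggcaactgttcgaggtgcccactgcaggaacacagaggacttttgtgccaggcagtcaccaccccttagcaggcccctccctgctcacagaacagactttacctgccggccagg

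Those of the lower genes are Acss1 (chr2:150668241-150668490, minus strand) and Ampd3 (chr7:110768372-110768621, plus strand).
Acss1: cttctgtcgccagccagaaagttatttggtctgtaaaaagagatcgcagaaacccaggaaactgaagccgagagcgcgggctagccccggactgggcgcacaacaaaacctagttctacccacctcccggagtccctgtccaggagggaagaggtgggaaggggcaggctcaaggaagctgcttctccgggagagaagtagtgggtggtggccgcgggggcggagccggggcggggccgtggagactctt
Ampd3: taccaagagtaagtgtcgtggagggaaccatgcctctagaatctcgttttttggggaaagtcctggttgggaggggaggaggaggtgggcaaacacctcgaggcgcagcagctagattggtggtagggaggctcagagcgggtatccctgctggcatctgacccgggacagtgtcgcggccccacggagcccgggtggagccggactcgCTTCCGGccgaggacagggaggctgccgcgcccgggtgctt

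At these starts, Irx3 was at 44.9 CPM in late and 25 in early cells of old replicate 2 and at 54.9 and 33.8 in the young library (log2 0.76, adjusted p = 2.13e-09, edgeR). Slc5a8 was at 21.1 and 13.1 CPM and at 40.3 and 19.8 CPM (log2 0.88), and Slc5a1 at 7.67 and 5.92 CPM and at 21.6 and 10.3 CPM (log2 0.80). Acss1 was at 29.1 and 39.9 CPM and at 19.8 and 34.9 CPM (log2 -0.63), and Ampd3 at 18.5 and 31.6 CPM and at 17.0 and 27.5 CPM (log2 -0.74). The starts of Irx3, Slc5a8 and Slc5a1 were thus above and those of Acss1 and Ampd3 below the early cells, as the calls that chose them require.

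The motifs, searched on both strands in the 300 bases from 250 before to 50 after the start, were CAAAGTCCA for HNF4, GTTAATNAT for HNF1, TGANTCA for AP-1, GGTCAAAGG for a nuclear receptor direct repeat, CCGGAAG for ETS factors, CAGNGGGNG for CTCF and ACANNNTGT for a glucocorticoid or androgen element. The only matches in the 6 printed promoters were an ETS match in Pou3f3 and one in Ampd3. The ETS letters stood in 2 of 21 promoters of higher genes, 2 of 16 of lower genes and 15.8% of all 13566 promoters in tested regions. The AP-1 letters stood in 2 of 21, 4 of 16 and 5.06%, and the HNF4 and HNF1 letters in 0, 0 and under 1% (0.56% and 0.767%). These counts are a description of the windows, and a window without a match says nothing about the factor.

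Single regions gave a wider view. Of 116613 regions tested, 229 were higher in late cells (0.196%) and 196 lower (0.168%) at an adjusted p under 0.05 (edgeR), 10038 reaching an unadjusted p under 0.05. Few lay at listed gene starts: 10.9% of the higher and 9.18% of the lower regions were within 1 kb of a start in RefSeq's promoter table, against 14.1% of all regions tested. That table lacks some genes, Tbx2 among them, so regions at their starts are missed in these shares. DESeq2 called 10 higher and 2 lower, and the stricter gate called none with 5338 at an unadjusted p under 0.05.

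The region with the largest decrease among those named overlaps one end of the Tbx2 gene body (chr11:85832113-85833297 of mm10), at 18.4 CPM in late and 41.0 in early cells of old replicate 2 and 12.9 and 32.7 in the young library (log2 -1.23 ± 0.14 SE, adjusted p = 3.7e-14, edgeR). The others that fell, with log2 differences between -1.09 and -1.03, lie between genes. Those assigned to Thap1, Fzd8, Pfn2 and Crb1 are 135826, 276722, 223490 and 17059 bp from these genes. For the regions assigned to Thap1, Pfn2 and Crb1, a listed start of another gene is closer, at 11567, 17187 and 10979 bp. Those that rose lie in the bodies of Slit3, a guidance ligand (chr11:35232132-35233047), Slc5a8 (chr10:88888245-88889133), Slc26a9, a chloride transporter, and Prlr (chr15:10277188-10278089), and near Ostc. The Slit3 region was at 20.3 and 8.81 CPM in old replicate 2 and at 26.7 and 12.8 CPM in the young library (log2 1.14), and that in Prlr at 12.9 and 8.03 CPM and at 26.5 and 11.1 CPM (log2 1.03). Slc7a7 held 3 called regions, all lower, and Slc5a1, Slc5a8, Slc22a13, Prlr, Aspg and Fto 2 each, all higher.

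Few segment genes outside the rule were called. Of 20 S3 genes listed, 18 could be tested, and Slc6a18 could not because it shares regions with Slc6a19. Slc5a1 and Slc5a8 rose, none fell, 15 of 18 were above 0 and the median was log2 0.12, against 49.2% above 0 and a median of -0.0033 over all genes tested. Nudt19 (log2 0.32, adjusted p = 0.0871, edgeR), a peroxisomal hydrolase, came next. Of 20 genes of S1 and S2, Slc7a7 fell and the dicarboxylate carrier Slc13a3 rose (log2 0.24), 6 were above 0 and the median was -0.05. Of 25 peroxisomal genes none passed the test, 17 were above 0 and the median was 0.06. Acox2, a bile acid and branched-chain oxidase, was the nearest at log2 0.30 (adjusted p = 0.0747, edgeR).

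**Figure D4:**
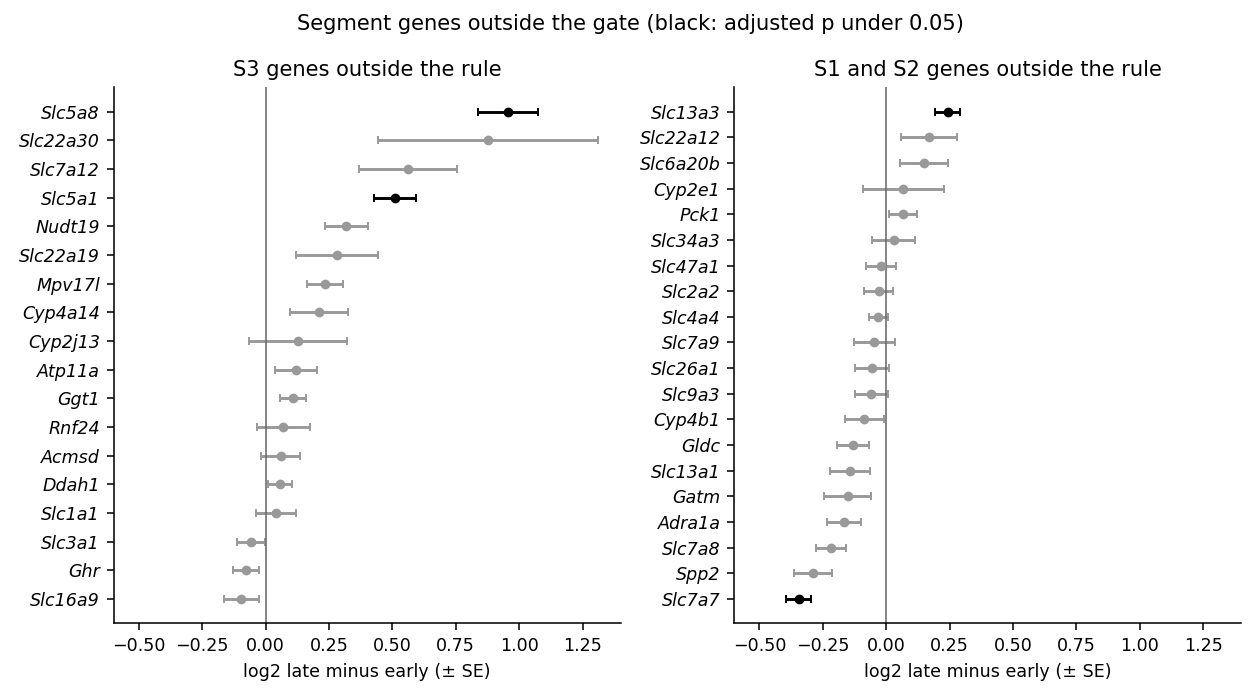
Late minus early difference (log2, points; bars, SE of the fit) of the listed segment genes that share no region with the rule. Black points passed an adjusted p under 0.05: Slc5a8 and Slc5a1 among S3 genes, Slc13a3 and Slc7a7 among S1 and S2 genes; 15 of 18 S3 genes and 6 of 20 S1 and S2 genes lie above 0.

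In the other lists few members were called, to be read against 0.24% higher and 0.205% lower over all genes tested. Organic anion and cation transporters had 2 of 19 higher (Slco3a1 and Slc22a13), amino acid and peptide reabsorption had 2 of 18 lower (Slc7a7 and Slc43a2), glucose transport and gluconeogenesis had 1 of 18 higher (Slc5a1), the 9 female-biased kidney genes had 1 higher (Prlr) and the 18 genes of the mitochondrial integrated stress response had 1 lower (Phgdh). Medians of these lists were 0.02, -0.05, 0.0069, 0.21 and -0.0033. No member was called among 24 nuclear subunits of oxidative phosphorylation (median 0.03), 20 genes of mitochondrial translation and mitochondrial DNA (0.02), 18 of fatty acid oxidation (0.05), 28 of glutathione and xenobiotic metabolism (-0.03), 33 tubule transcription factors (0.00027), 10 male-biased genes (0.17), 15 injury genes (-0.02), 18 immediate early genes (0.03), 25 histone genes (-0.05), 21 interferon and antigen presentation genes (-0.04), 16 growth and imprinted genes (-0.06) or 13 senescence and p53 genes (-0.02). Dpep1, a brush border dipeptidase, Spp1, osteopontin, and Peg3 came closest, at log2 -0.37, -0.42 and 0.25 with adjusted p of 0.0606, 0.0531 and 0.0764 (edgeR). At gene starts alone Spp1, one of the injury genes, was called lower (log2 -0.51, adjusted p = 0.00445, edgeR).

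Markers of other cell types differed little between late and early cells, and none was called over its gene body. At gene starts alone the podocyte gene Nphs1 was lower in late cells (0.959 and 3.73 CPM in old replicate 2, 0.635 and 4.16 CPM in the young library). The 6 thin limb markers, the segment that follows, summed to 426 and 440 CPM in late and early cells of old replicate 2 and to 490.0 and 491 CPM in the young library. The 8 macrophage or dendritic cell markers summed to 80.5 and 77.0 and to 77.9 and 70.2, with Adgre1 and Lyz2 at 0, and the 7 endothelial markers to 75.7 and 74.2 and to 67.6 and 65.1. The 7 T or NK markers summed to 50.8 and 47.7 and to 40.0 and 39.4, with Cd3d, Cd3g, Trbc1 and Trbc2 at 0, and the 5 neutrophil markers to 20 and 18.8 and to 19.4 and 20.4, with all but Csf3r at 0. The 5 injury markers summed to 24.6 and 22.4 and to 23.2 and 20.4, with Havcr1 and Lcn2 at 0. Of the 3 that could be tested, 2 were above 0 (median log2 0.15). A 0 here means no count in regions with a peak in both libraries. Barcodes marked as doublets were 16 of the 283 and 1 of the 193 late members (5.65% and 0.518%). Among early barcodes they were 85 of 1241 and 111 of 2376 (6.85% and 4.67%). Among all barcodes with at least 3000 counts they were 113 of 3755 and 115 of 3795.

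Old replicate 2 and the young library were then compared within late cells. Each age has 1 library with members, so there is no test, and age cannot be told apart from animal or library. A gene was counted as past 2-fold when log2 of CPM plus 10 differed by at least 1 and the exact 95% Poisson intervals on fragments, which cover counting error only, did not overlap. Of 28895 genes, 39 were past it with old higher (0.135%) and 22 with old lower (0.0761%), and the median difference of all genes was 0.0019. After TMM scaling 25 were higher and 25 lower, which moves the split from 39 against 22 to even.

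Many of the genes lower in the old library were histone genes. H2bc9 was at 12.1 CPM in old and 64.0 in young late cells, and at 20.4 and 57.8 in early cells. H2bc8 was at 5.75 and 37.8 CPM in late cells and at 6.69 and 39.3 in early cells. Of 25 replication-dependent histone genes, 8 were past 2-fold, all lower in old, with a median of log2 -0.76. Several share regions, so the 8 rest on 6 distinct counts. Late barcodes of old replicate 1, whose values are set beside the same young library, were at 10.1 CPM for H2bc9 and 12.6 for H2bc8 (intervals 2.75 to 25.8 and 4.1 to 29.4), against 73.7 and 43.5 in young late cells over the regions that library shares. Other named histone genes were mixed. H2ac22 and H2bc22, which share that library's counts, were at 30.3 against 36.2 CPM and H2bc14 at 26.5 against 32.6, where old replicate 2 gave log2 -1.35, -1.31 and -1.10. H2ac8 and H4c8 were also closer, at log2 -1.03 and -0.83 where old replicate 2 gave -1.30 and -1.15. H3c6 and H4c4 differed by more there, at log2 -1.53 and -1.48 where old replicate 2 gave -1.27 and -1.18. Ggnbp2, the one gene outside the histones among the named decreases, was at 28.8 and 90.0 CPM but at 94.6 in old replicate 1.

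The genes higher in the old late cells were of several kinds. H1f7, a linker histone gene known from the testis, was at 35.0 CPM in old and 4.76 in young late cells, and Rxrg, a retinoid X receptor, at 48.9 and 14. Snrpn and Snhg14, imprinted genes, were at 59.6 and 15.6 and at 67.1 and 16.2, but Snrpn lies within Snhg14, so they are largely one measurement. At the start of Snrpn alone the difference was log2 0.44, against 1.45 over the gene. Cdsn, Fxyd4, Lncpint, Hcrtr2, Igh and Syndig1 completed the named genes. Early cells of the same libraries gave 26.7 and 3.94 CPM for H1f7, 51.1 and 17.5 for Rxrg, and 55.5 and 19.7 for Snrpn, the same order as in late cells. Fxyd4, a collecting duct marker, was at 32.8 and 7.46 in late and 28.4 and 11.9 in early cells. Late barcodes of old replicate 1 were at 46.7 CPM for H1f7 (interval 28.1 to 72.9), 50.5 for Snrpn, 35.3 for Rxrg and 17.7 for Fxyd4 (7.1 to 36.4), against 5.49, 14.8, 15.2 and 8.6 in the young library over the regions they share. The interval of Fxyd4 reaches the young value, and its difference there was log2 0.57 where old replicate 2 gave 1.29. Of the 19 organic anion and cation transporters 2 were past 2-fold with old higher, against 0.135% of all genes, and of 18 amino acid and 18 glucose genes none: Slco1a6 was at 42.3 CPM in old and 16.0 in young late cells and Slco2b1 at 31.2 and 10.2. Slco1a6 was also the 1 gene past 2-fold among the 9 female-biased kidney genes (median of the list -0.17). None of the 10 male-biased genes was, and the sex of the mice is not stated. Of 20 genes of S1 and S2, 1 was past 2-fold, Gldc, the glycine decarboxylase, at 168 and 74.0 (median of the list -0.01).

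**Figure D5:**
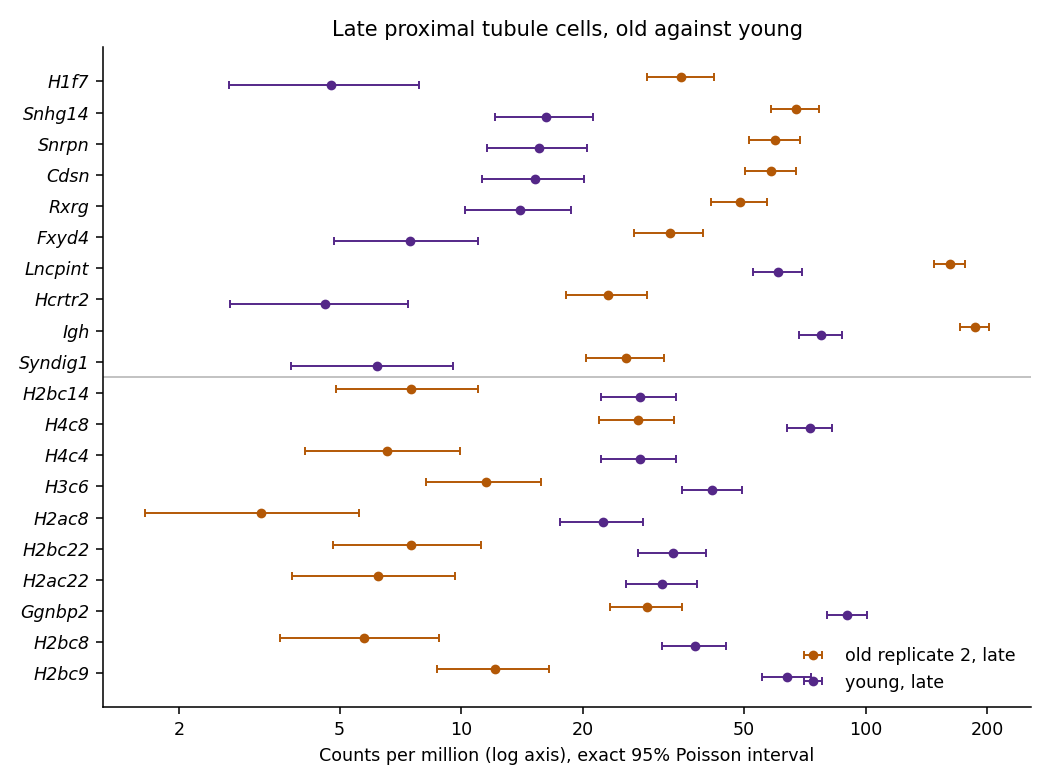
CPM (log axis) of the 20 named genes in late cells of old replicate 2 (orange) and of the young library (purple), with exact 95% Poisson intervals on fragments. Genes above the line are higher in old, such as H1f7 (35.0 against 4.76), and those below it lower, such as H2bc9 (12.1 against 64.0); each age is 1 library.

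Of 18 S3 genes outside the rule none was past 2-fold between the ages and the median was -0.07. Of 24 nuclear genes of oxidative phosphorylation, 18 of the mitochondrial integrated stress response and 20 of mitochondrial translation and mitochondrial DNA none was past it, with medians of -0.0081, -0.04 and -0.07. Slc5a1 was at 60.4 CPM in old and 86.2 in young late cells and Slc5a8 at 32.1 and 58.6, below the 2-fold limit as defined.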

How the data were processed

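Per the submitters' processing notes, the authors used Cell Ranger ATAC 2.1.0 with mm10. Each deposited matrix gives unnormalised counts of transposition events, by peak and by barcode, for that library's own peaks and called cells. Most are even, as 2 ends of a fragment each count, so Poisson intervals were computed on fragments (count over 2, rounded up). The members, gene lists and tests were chosen with earlier results of these data known.

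Overlapping peaks (1 bp or more, bedtools 2.31.1) of the 2 libraries with members were joined, and the 118097 regions with a peak in both were used. They held 6258376 of 6488978 late counts in old replicate 2 and 6300217 of 6523028 in the young library. A gene's count is the sum over regions overlapping its RefSeq body (GRCm38.p6) or 2 kb on either side. The 34 genes that share a region with a gene of the rule were not tested. Sums per library and class were fitted with edgeR 4.0.16 (R 4.3.3, quasi-likelihood test, TMM, filterByExpr), two-sided with Benjamini-Hochberg adjustment over all genes. Library was a block, since it pairs the late and early cells that it holds. On simulated counts for 28712 genes, this late against early fit recovered 47% of 1.5-fold changes and 81.5% of 2-fold changes, with 10 of 104 and 5 of 168 calls false. There, both classes of a library were drawn from its early means, with the same spread for every gene and the same change in both libraries. Late against early differences that vary between libraries were not simulated, so these shares of false calls hold for that setting only.

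Proximal barcodes were compared by latent semantic indexing (30 components, 20 neighbours) and Leiden clusters at resolution 1, without regions of the rule's genes. Doublets were scored against simulated ones and marked at a fixed rate, and stayed in unless stated. Binomial intervals are Clopper-Pearson at 95%. Named genes are the 12 with the largest fold in each direction that passed the test with the same direction in both libraries, at least 20 CPM on average and an assigned symbol; for age, the 10 past 2-fold in each direction with at least 20 CPM in 1 library; for regions, the 5 in each direction with at least 10 CPM; and up to 3 members per list. One gene that met the rule is not reported here. Other genes named (Fto, Irx3os, Ror2, Sim1, Esr1, Slc22a22, Dmgdh and those DESeq2 called) were chosen after their values were seen, as were the promoters shown and the motif search in them. No genome of the build was used, so motifs in regions were not searched. Alternatives were RLE scaling, no filter on low counts, DESeq2 1.42.0, no block, fragments in place of counts, a stricter gate, 5000 counts per barcode, doublets left out, all other proximal barcodes as comparison, each library's own peaks, regions within 1 kb of the start and, added after the data had been seen, old replicate 1 as another library.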

Additional observations from a re-analysis of the deposited data

Results flagged for a closer look

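Chac1, a glutathione-degrading enzyme of the integrated stress response, moved in opposite directions in the 2 libraries. In old replicate 2 it was at 34.5 CPM in late and 23.2 in early cells, a log2 difference of 0.57 (0.574448 before rounding). In the young library it was at 17.3 and 24.3 CPM, a difference of -0.48. The intervals of late and early cells did not overlap in either library, and the difference between the libraries was not tested. Old replicate 1 had 20.2 and 37.6 CPM, the direction of the young library, on 16 late counts. Over both libraries the gene was not called (log2 0.08, adjusted p = 0.934, edgeR).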

How the results depend on the processing

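Genes called higher and lower in late cells, 69 and 59 as reported, were 151 and 145 with RLE scaling, 161 and 134 on fragments, 157 and 163 without doublets, 135 and 137 with each library's own peaks, 102 and 98 against all other proximal barcodes, 93 and 87 without the filter, 65 and 56 from 5000 counts, 42 and 40 under the stricter gate, 23 and 22 at gene starts, 8 and 7 with DESeq2, and 1 and 2 with old replicate 1 added. Without the replicate block, that is without pairing late and early cells by library, there were 0 and 0 (452 at an unadjusted p under 0.05, edgeR), and 0 and 0 of the regions (3065). The 128 genes were all called again with RLE scaling, no filter, fragments, doublets left out, other proximal barcodes and own peaks, and 39 of them under the stricter gate, which has fewer barcodes. Regions, 229 and 196 as reported, were 120 and 113 against other proximal barcodes, 10 and 2 with DESeq2, and 0 and 0 under the stricter gate. The stricter gate used fewer barcodes and the gene starts shorter windows, but the cause of these changes was not tested.

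Genes past 2-fold with age, 39 and 22 as reported, were 25 and 25 with TMM scaling, 71 and 39 with own peaks, 125 and 97 under the stricter gate, 12 and 20 at gene starts, and 287 and 194 with the 32 barcodes of old replicate 1 in place of old replicate 2. Hcrtr2 changed sign at its start (log2 -0.0217). The late share of old replicate 2 was 9.58% after thinning and 2.27% under the stricter gate, and that of the young library 1.28% under the stricter gate. Leaving out either library leaves 1 pair and no test. With 2 pairs the spread was shared across genes, in part for the gene calls as reported. It was shared in full with RLE scaling, fragments, doublets left out, own peaks and other proximal barcodes, which called more genes. The stricter gate and gene starts also shared it in full and called fewer. How far this sets the number of calls was not tested. The age comparison has 1 library of each age and counts only differences past 2-fold with intervals apart.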
